A study of Mus musculus with 14 samples.

Results

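Notch signaling works between neighboring cells. A ligand of the Delta-like or Jagged family on the surface of a cell binds a Notch receptor on its neighbor, the receptor is cleaved, and its freed intracellular part enters the nucleus, joins the DNA-binding protein RBPJ and switches on genes of the Hes and Hey families, which encode transcriptional repressors. In adult muscle stem cells (MuSCs) this pathway is known for holding cells in quiescence and for keeping the myogenic program in check. MyoD, a transcription factor that drives MuSCs toward the muscle lineage, and MyoG, which acts later in differentiation, belong to that program.

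Listed MyoD and MyoG peaks were examined at 10 genes of this pathway: the receptors Notch1, Notch2 and Notch3, the ligands Dll1, Jag1 and Jag2, and the repressor genes Hes1, Hes6, Hey1 and Heyl. A peak belonged to a gene where the authors' annotation gave it that gene's name, and a gene without such a peak was counted as not bound. Of the 4386 genes given to any peak in the series, 9 were among these 10, and Hey1 was in no list. The 10 genes were proposed with earlier results of these peak lists known, so their counts are descriptions.

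All cells came from mice labelled wild-type that carried a mito-Dendra2 allele, a fluorescent mitochondrial protein, switched on by tamoxifen through the Pax7-Cre(ERT2) driver, which acts in MuSCs and marks their progeny too. The mice received tamoxifen (75 mg/kg) for 5 days. Injury was made in the tibialis anterior, a muscle of the shin, with 1.2% BaCl2 in a volume of 50 µL, and the opposite leg received saline. At 2 days after injury, activated cells (ASCs) were sorted from the injured muscle as CD34-, Dendra2+ cells and quiescent cells (QSCs) from the saline-injected muscle as CD34+, Dendra2+ cells, so that the quiescent cells also came from injured, tamoxifen-treated animals. Age is not given in the labels. The study describes the ChIP-seq replicates as biological, and the labels do not tie them to individual animals, so p-values measure the spread between these libraries. ChIP-seq, the sequencing of DNA recovered with an antibody from fixed chromatin, was run with an antibody to MyoD or to MyoG on either cell state, in 3 libraries for each of the 4 combinations, and 2 input libraries were not analysed here.

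The 12 lists held 10303 peaks, between 2262 and 2652 per library in ASC MyoD, 605 to 916 in ASC MyoG, 139 to 174 in QSC MyoD and 120 to 167 in QSC MyoG. Each peak has a score, minus 10 times the log10 of its p-value, which starts at 50 (a p-value of 1e-05) and depends on the depth of its library. The lists hold no read counts, so the depth is unknown. They measure binding and not expression, so the labelled cell state could not be checked against marker genes.

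The 10 genes had 30 listed peaks, all of them in ASCs. MyoD libraries held 9, 8 and 10 of these peaks in replicates 1, 2 and 3 (mean 9.0 ± 1.0, SD, n = 3), which was 0.376% ± 0.0519 of their peaks. MyoG libraries of ASCs held 1, 2 and 0, and none of the 6 QSC libraries held any. A listed MyoD peak in at least 1 ASC library was present at 9 of the 10 genes, against 10.7% of the 21900 protein-coding genes of RefSeq. With MyoG in ASCs it was present at 3 of the 10, against 3.36% of protein-coding genes. In QSCs 1.02% of protein-coding genes had a listed MyoD peak and 1.27% a listed MyoG peak. The short QSC lists limit what their empty rows can show. With the ASC MyoD share of 0.374% (27 of 7210 peaks), a QSC MyoD list would hold 0.521 to 0.652 peaks at these genes. The 3 QSC MyoD lists together would hold 1.81. At that share the 3 QSC MyoG lists would hold 1.68, but the ASC MyoG share was lower, 0.139%.

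**Figure D1:**
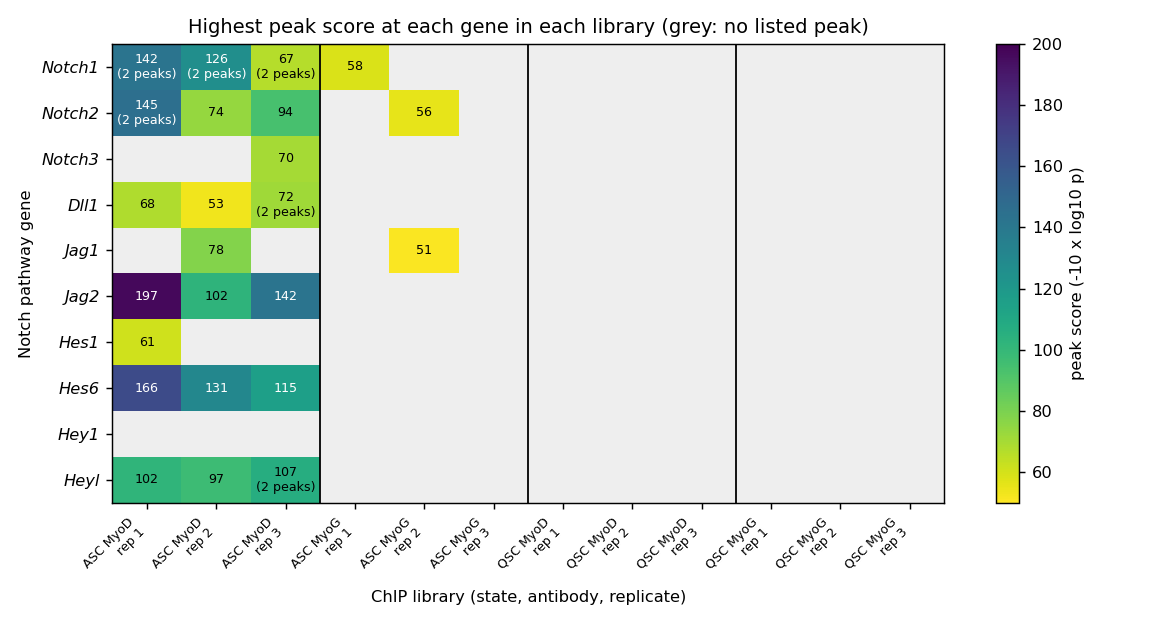
Highest peak score (minus 10 times log10 p, color and number) at each of the 10 genes (rows) in each of the 12 ChIP libraries (columns), with the number of peaks where a library held more than 1 and grey where none was listed. Scores stand at 7 of the 10 genes in each ASC MyoD column, reach 196.85 at Jag2, appear 3 times in the ASC MyoG columns and are missing from the QSC columns.

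Overlapping peaks of all libraries were joined into 16 regions. Of these, 6 had a peak in all 3 ASC MyoD libraries, none in exactly 2, 9 in a single ASC MyoD library, and 1 only in MyoG. The 6 recurring regions lay at 5 genes, Notch1 (2 regions), Notch2, Jag2, Hes6 and Heyl. A region with peaks in at least 2 of the 3 ASC MyoD libraries and none in QSC MyoD is called ASC-specific, and the same 5 of 10 genes had such a region, against 5.92% of protein-coding genes and 36.8% of the 4385 gene names in the lists. When all 3 ASC libraries were required the background share was 3.56%. No gene of the 10 had an ASC-specific MyoG region, which 0.187% of protein-coding genes and 2.1% of the names in the lists had. None had a QSC-specific MyoD region (0.0548% and 0.502%) or a QSC-specific MyoG region (0.00913% and 0.0456%). Mean scores of the 6 recurring MyoD regions ran from 91.8 to 147, and scores of the 9 regions seen in a single library from 53.1 to 104.

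**Figure D2:**
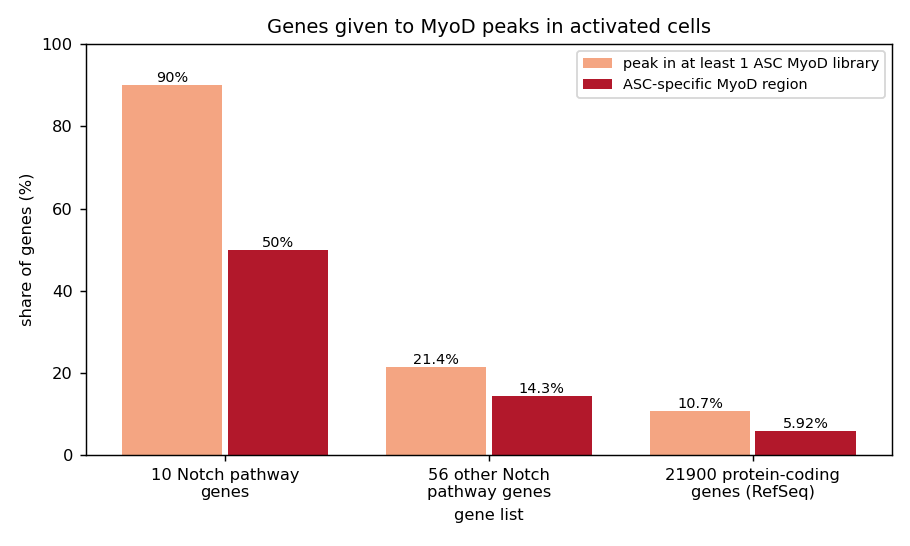
Share of genes (percent, vertical axis) with a listed peak in at least 1 ASC MyoD library and with an ASC-specific MyoD region, for the 10 Notch pathway genes, 56 other genes of the pathway and 21900 RefSeq protein-coding genes. The shares with an ASC-specific region were 50%, 14.3% and 5.92%, and the 10 genes had been chosen with earlier results known.

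Of the receptors, Notch1 (ENSMUSG00000026923) carried the most MyoD peaks of the 10 genes, 2 in each ASC library, 6 in all. Its exon 3 of 34 held a region (chromosome 2, 26484942 to 26486043, mm10) with MyoD scores of 142, 66.6 and 66.5 in replicates 1, 2 and 3 (mean 91.8 ± 43.8, SD, n = 3), and intron 2 held another (chromosome 2, 26487312 to 26488466) with scores of 96.6, 126 and 53.1 (mean 91.9 ± 36.6). The regions lie 1268 bp apart, centered 18.3 and 15.9 kb downstream of the gene's RefSeq start site. Replicate 1 gave the highest score in the exon and replicate 2 in the intron, while both scores of replicate 3 were low. Notch1 was the 1 gene of the 10 with at least 2 ASC-specific MyoD regions, which 1.12% of protein-coding genes had, or 0.466% when all 3 ASC libraries were required. The exon region also had a MyoG peak in ASC replicate 1 with a score of 58.4, which shared 711 to 860 bp with the 3 MyoD peaks.

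Notch2 (ENSMUSG00000027878), a receptor that like Notch1 is present on MuSCs, had its recurring region in intron 1 of 33 (chromosome 3, 98025550 to 98026433), 12.5 kb downstream of the start site. MyoD scores there were 145, 73.7 and 93.8 in replicates 1, 2 and 3 (mean 104 ± 36.8, SD, n = 3). A MyoG peak of ASC replicate 2 with a score of 55.6 lay on the same region and shared 623 to 652 bp with the MyoD peaks. Replicate 1 alone listed a further MyoD peak in this intron, 664 bp away (98024032 to 98024885, score 88.2). Notch3 (ENSMUSG00000038146), the third receptor, had 1 MyoD peak, in ASC replicate 3 (chromosome 17, 32164037 to 32164942, score 70.5). It was annotated to a promoter at 1-2 kb and lies inside the gene, 2.40 kb from the RefSeq start site. The receptors thus differed in how often MyoD peaks recurred, in all 3 libraries for Notch1 and Notch2 and in a single library for Notch3.

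**Figure D3:**
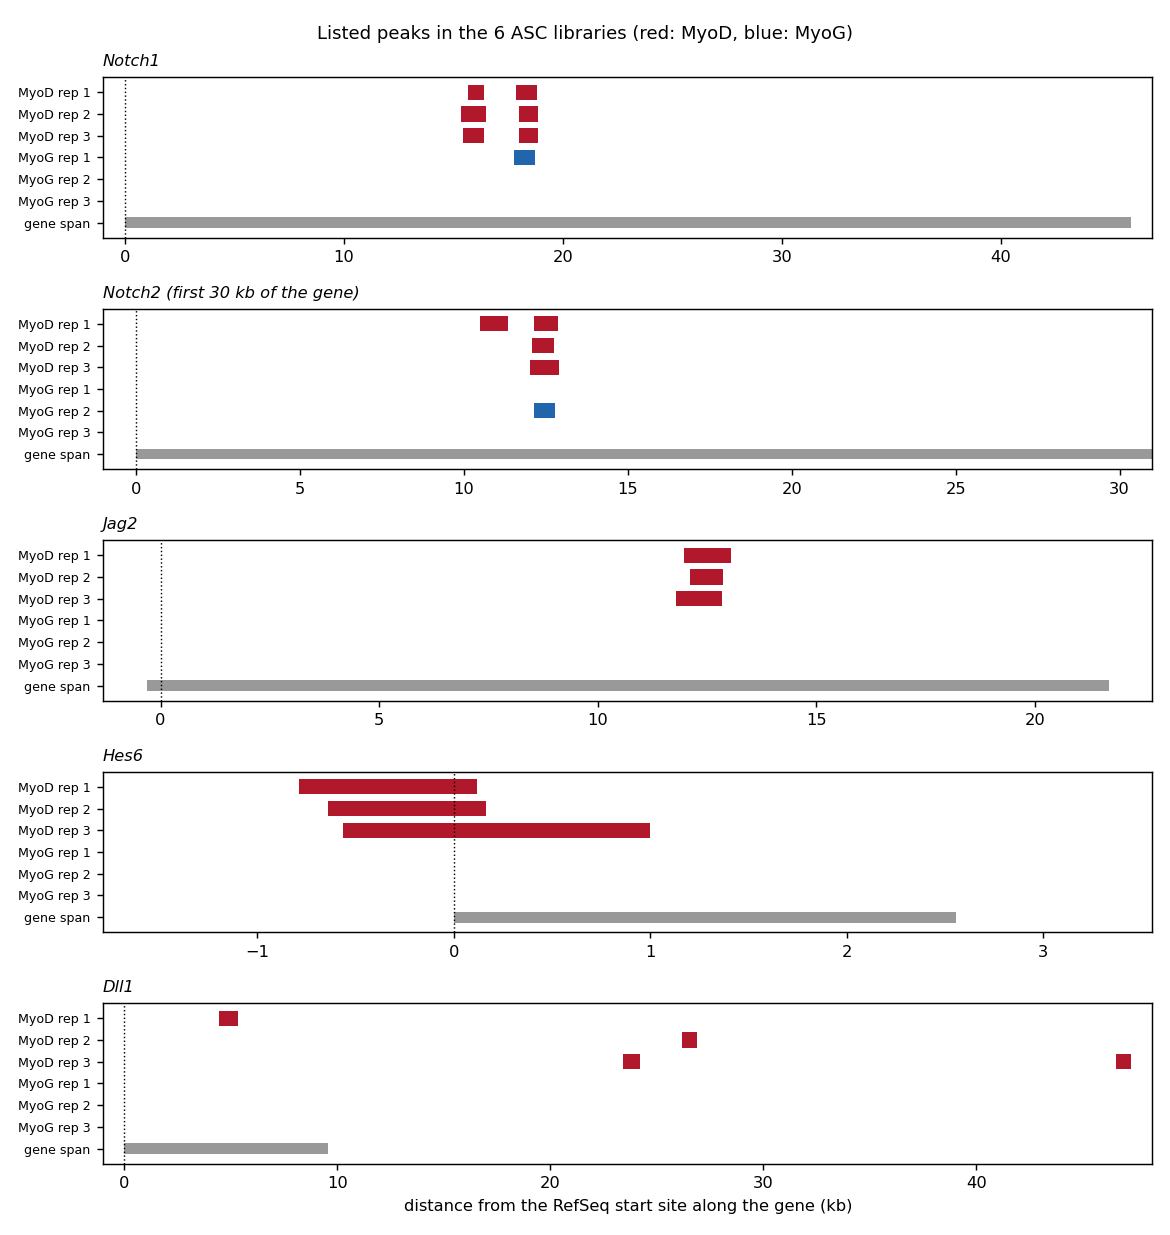
Listed peaks of the 6 ASC libraries (rows, MyoD in red and MyoG in blue) at Notch1, Notch2, Jag2, Hes6 and Dll1, by distance in kb from the RefSeq start site (dotted line), with the gene span in grey. MyoD peaks of the 3 replicates line up at Notch1, Notch2, Jag2 and Hes6 and not at Dll1, and the MyoG peaks at Notch1 and Notch2 lie under MyoD peaks.

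The ligands differed in the same way. Jag2 (ENSMUSG00000002799), which encodes a Jagged ligand, had the recurring region with the highest mean score, with 197, 102 and 142 in MyoD replicates 1, 2 and 3 (mean 147 ± 47.4, SD, n = 3), at a single place inside the gene (chromosome 12, 112916438 to 112917713). The 3 peaks shared 741 bp. Replicate 1 was highest and replicate 2 lowest. The peaks of replicates 1 and 2 were annotated to exon 6 of 26 and that of replicate 3 to a promoter at 2-3 kb, while the region is centered 12.4 kb downstream of the RefSeq start site. Its relative Jag1 (ENSMUSG00000027276) had 1 MyoD peak, in exon 4 of ASC replicate 2 (chromosome 2, 137100879 to 137101695, score 77.6), and 1 MyoG peak in the same replicate number, 64621 bp outside the gene (137181141 to 137181730), whose score of 50.7 was close to the lowest in the lists.

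Dll1 (ENSMUSG00000014773), a Delta-like ligand known for activating Notch during myogenesis, had MyoD peaks in every ASC library but never at the same place. Replicate 1 listed 1 peak inside the gene (chromosome 17, 15371600 to 15372485, score 67.9), annotated as a promoter and 4.89 kb from the outermost RefSeq start site. Replicate 2 listed 1 distal intergenic peak (15350063 to 15350742, score 53.1) and replicate 3 listed 2 (15352741 to 15353532, score 71.6, and 15329670 to 15330397, score 53.5). No pair of these peaks overlapped, so Dll1 was 1 of 6 genes with a MyoD peak in all 3 ASC libraries (3.9% of protein-coding genes had one) and the only one of these without a recurring region.

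Among the repressor genes Hes6 (ENSMUSG00000067071) stood with the recurring regions. Unlike Hes1, whose product it opposes, Hes6 is known as a gene that favors differentiation of myoblasts. Its promoter peak had MyoD scores of 166, 131 and 115 in replicates 1, 2 and 3 (mean 137 ± 25.8, SD, n = 3) and covered chromosome 1, 91413042 to 91414824. The 3 peaks shared 680 bp, and it was the only recurring region of the 6 that held a RefSeq start site. The 250 bases before that start site lay wholly inside the peak of every ASC MyoD library. MyoD binds the E-box, CANNTG, which is its own reverse complement in the fixed letters and so was searched on both strands at once. The stretch is shown for that motif (RefSeq, GRCm38.p6, minus strand, chr1:91414039-91414288, written in the direction of the gene) with every E-box in capitals.

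Hes6 promoter: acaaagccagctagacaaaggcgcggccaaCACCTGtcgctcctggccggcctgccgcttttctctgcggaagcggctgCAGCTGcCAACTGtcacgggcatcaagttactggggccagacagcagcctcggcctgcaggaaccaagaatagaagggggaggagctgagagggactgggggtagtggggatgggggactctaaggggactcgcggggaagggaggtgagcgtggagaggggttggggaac

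It holds 3 E-boxes, whose leading bases lie 220 (CACCTG), 171 (CAGCTG) and 164 (CAACTG) bases before the start site. CAGCTG was present in this stretch of 13.0% of all 32851 promoters in the RefSeq table, CACCTG or its reverse complement CAGGTG in 17.2%, and any CANNTG in 66.2%. Of the 76 promoters whose stretch lay inside a region of all 3 ASC MyoD libraries, 44.7% held CAGCTG, 35.5% CACCTG or CAGGTG, and 86.8% any CANNTG. The RBPJ motif TGGGAA or its reverse complement TTCCCA, present in 21.6% of all promoters and 21.1% of these 76, was not in the Hes6 stretch. RefSeq gives Hes6 another start site, inside the gene at position 91413222, and only the peak of replicate 3 reached the stretch before it. A CAGCTG begins 150 bases before that site, shown in capitals with 10 bases on each side (GRCm38.p6, minus strand, chr1:91413357-91413382).

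Hes6 inner site: tccgccccgcCAGCTGccagagaccc

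The promoter table matched 7 of the 10 genes, with 9 start sites, and Hes1, Hey1 and Heyl were not in it. Both Hes6 windows lay under an ASC MyoD peak. The other 7 had no listed peak, and 3 of them held an E-box, including a CAGCTG at Jag1 and at the outermost start site of Dll1. A motif match is a description of letters and does not mark a bound site. The recurring regions of Notch1, Notch2, Jag2 and Heyl lie outside these windows, and their sequences were not analysed here.

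Heyl (ENSMUSG00000032744), a Hey-family target that acts in MuSCs together with Hey1, had a recurring distal intergenic region 4622 bp outside the gene (chromosome 4, 123227878 to 123228934). Its MyoD scores of 102, 97.2 and 107 in replicates 1, 2 and 3 were the closest together of the 6 recurring regions (mean 102 ± 4.76, SD, n = 3). Replicate 3 listed a further peak 1430 bp away (123225678 to 123226447, score 104). Hes1 (ENSMUSG00000022528), the classic Notch target, had a single MyoD peak, in ASC replicate 1 (chromosome 16, 30063807 to 30064462, score 60.6), annotated as a promoter and ending 895 bp outside the gene. Hey1 (chromosome 3, 8663359 to 8667038 in RefSeq) had no listed peak in any of the 12 libraries. No listed peak of another gene lay within 50 kb of it either. None of the repressor genes had a MyoG peak.

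Within their own lists the MyoD peaks at these genes ranked from percentile 10.3 (Dll1, replicate 2) to 93.8 (Jag2, replicate 1), with a median of 72.7, and 20 of 27 scored above the median of their list. All peaks of Jag2, Hes6, Heyl and Notch2 did. Below it fell both Notch1 peaks of replicate 3, the exon peak of Notch1 in replicate 2, the Hes1 peak and 3 of the 4 Dll1 peaks. The 18 peaks in recurring regions had a median score of 105, against 97.1 for all ASC MyoD peaks in regions of all 3 libraries. The 9 peaks seen in a single library had a median score of 70.5, against 58.4 for all such peaks. Recurring regions took up 66.7% of the MyoD peaks at these genes and 46.3% of all ASC MyoD peaks.

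**Figure D4:**
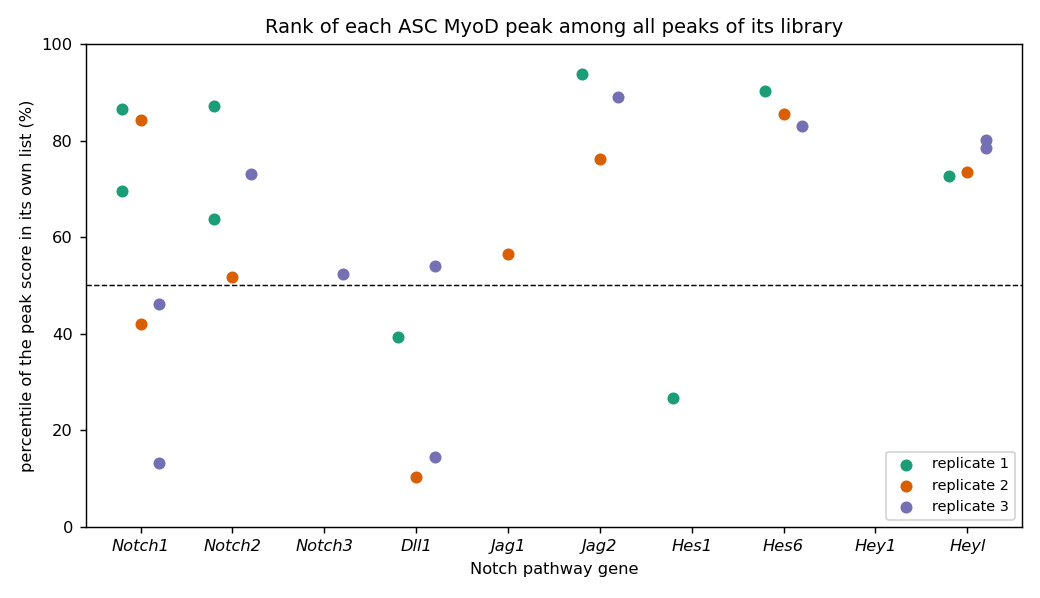
Percentile of each ASC MyoD peak's score among all peaks of its own library (vertical axis), by gene and replicate (color), with the list median as a dashed line at 50. Jag2 and Hes6 lie above percentile 76 in every replicate, Notch1 spreads from 13.3 to 86.6, and Hes1 and most Dll1 peaks lie below the line.

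By gene part, 7 of the 27 MyoD peaks were distal intergenic (25.9%, against 35.8% of all ASC MyoD peaks), 7 intronic (25.9% against 35.1%), 7 at promoters within 3 kb (25.9% against 22.5%) and 6 in exons (22.2% against 3.94%). The exon peaks were the 3 of Notch1 exon 3, those of Jag2 in replicates 1 and 2 and that of Jag1. The 27 peaks fell into 15 regions, so peaks of different replicates at the same place are counted more than once in these shares. Of the 6 recurring regions, 4 lay inside the gene, 1 held the start site and 1 was distal.

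For each gene the number of peaks per library was compared between ASCs and QSCs. With MyoD, 6 of the 10 genes had more peaks in every ASC library than in any QSC library, against 3.78% of protein-coding genes and 31.7% of genes given to a MyoD peak. They were Notch1 (2, 2 and 2 peaks in ASCs), Notch2 (2, 1 and 1), Dll1 (1, 1 and 2), Jag2 (1, 1 and 1), Hes6 (1, 1 and 1) and Heyl (1, 1 and 2), each with 0, 0 and 0 in QSCs. The exact two-sided permutation p was 0.1 for each, the smallest that 3 libraries against 3 allow, and 0.312 after Benjamini-Hochberg adjustment over the 3224 genes with a MyoD peak. At 0.05 the exact permutation test called 0 genes, adjusted or not, since no gene can reach it in this design. With a score of at least 80 required, 3 of the 10 genes remained without overlap between the groups, Jag2, Hes6 and Heyl. Without distal intergenic peaks 4 remained, Notch1, Notch2, Jag2 and Hes6, while Dll1 and Heyl no longer did. Notch3, Jag1 and Hes1, with a peak in 1 library each, overlapped with the QSC values (exact permutation p of 1.0). With MyoG no gene of the 10 had separate groups, as 0.142% of protein-coding genes and 4.8% of genes given to a MyoG peak had, and Notch1, Notch2 and Jag1 each had an exact permutation p of 1.0. The lists compared differ in length, from 2262 to 2652 peaks with MyoD in ASCs and from 139 to 174 in QSCs, and the part of list length in the gene counts was not tested.

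In ASCs, MyoD was compared with MyoG. More MyoD peaks in every ASC MyoD library than in any ASC MyoG library were listed at 5 of the 10 genes, Notch1, Dll1, Jag2, Hes6 and Heyl, against 3.53% of protein-coding genes and 24.4% of genes given to a peak in ASCs (exact permutation p of 0.1 each, 0.384 after adjustment over 3917 genes). At Notch2 the groups overlapped, with 2, 1 and 1 MyoD peaks and 0, 1 and 0 MyoG peaks (exact permutation p of 0.3, adjusted 0.852). Without distal intergenic peaks 3 genes remained, Notch1, Jag2 and Hes6, and at a score of at least 80 Jag2, Hes6 and Heyl. The ASC MyoG lists were shorter, with 605 to 916 peaks against 2262 to 2652 with MyoD. The part of list length in these counts was not tested. Of the 3 MyoG peaks at the 10 genes, 2 lay on recurring MyoD regions, at Notch1 and Notch2, while 4.95% of all 2160 ASC MyoG peaks lay on a region of at least 2 ASC MyoD libraries. Each was listed in only 1 MyoG library, replicate 1 at Notch1 and replicate 2 at Notch2.

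Among the 10 genes, the highest mean summed score in ASC MyoD was that of Notch1 (239, 192 and 120 in replicates 1, 2 and 3). By the Euclidean distance of summed scores over the 12 libraries, its nearest neighbors among 4385 other genes were Pip4k2a (distance 38.1, with 226, 214 and 90.9), Foxo6 (45.5, with 211, 185 and 155) and Hmcn2 (60.1, with 229, 192 and 109). None of the 3 had a QSC peak, and Pip4k2a and Foxo6 also had ASC MyoG peaks, with summed scores of 58.0 and 54.1. The order of the 5 genes with recurring regions by mean summed score was Notch1 (184 ± 60.1, SD, n = 3), Jag2 (147 ± 47.4), Hes6 (137 ± 25.8), Heyl (137 ± 64.5) and Notch2 (134 ± 86.9), and no neighbors in this order differed by more than their spread.

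A list of 56 other Notch pathway genes served as context. An ASC-specific MyoD region was found at 8 of them (14.3%), and 43 had no listed peak in any library. None had an ASC-specific MyoG region or a QSC-specific region of either antibody. The 8 were spread over roles: 3 of 12 genes for endocytosis and turnover (Dtx4, Neurl1a and Numb), 2 of 7 corepressors and coactivators (Kat2b among them), 1 of 5 in the nuclear core (Rbpj), 1 of 5 glycosyltransferases (Mfng) and 1 of 6 satellite cell partners (Megf10). None of the 6 further receptors and ligands, the 6 further targets or the 9 genes of receptor cleavage had one.

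Regions of Megf10 and Neurl1a had higher mean scores than any region of the 10 genes. Megf10, a surface receptor tied to satellite cell proliferation and Notch, had a region in exon 5 with scores of 323, 382 and 308 in MyoD replicates 1, 2 and 3 (mean 338 ± 39.3, SD, n = 3) and another in exon 10 (mean 168 ± 68.4). Neurl1a, a ubiquitin ligase that promotes uptake of Notch ligands, had a region in intron 1 of 5 (chromosome 19, 47222035 to 47223333) with scores of 338, 202 and 205 (mean 248 ± 77.4), and another in intron 3 (mean 105 ± 46.7). Dtx4, a Deltex ubiquitin ligase, had a region in intron 2 of 8 (chromosome 19, 12486546 to 12487639, mean 126 ± 22.7), and the promoter of Mfng, which modifies Notch receptors with sugars, had one on chromosome 15 (78773010 to 78774132, mean 106 ± 28.9).

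Numb, an inhibitor of Notch that is handed unequally to daughter cells, had a region in intron 3 of 10 in all 3 libraries (chromosome 12, 83852582 to 83853411, mean 77.1 ± 12.3). The same intron held another region in 2 libraries (83848549 to 83849559), with scores of 113 and 78.6 in replicates 1 and 2. Rbpj itself had a distal region in 2 libraries (chromosome 5, 53525285 to 53526174, scores 122 and 70.4 in replicates 1 and 3), as did the promoter of the acetyltransferase gene Kat2b (chromosome 17, 53596131 to 53597139, scores 67.1 and 52.8 in replicates 2 and 3). In QSCs, the only peaks at the 56 genes were from MyoG replicate 3, with a score of 56.7 on the intron 1 region of Neurl1a and 60.3 at a distal site of Megf10.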

How the data were processed

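Peak lists of 12 ChIP libraries were analysed. The authors called peaks in each library and deposited, per the file headers, each peak's position, gene, gene part and score, minus 10 times the log10 of its p-value. The submitters' processing notes name BWA 0.7.5, MACS, deepTools 3.5.0 and the build mm10, without roles. Use of the inputs and filters on peaks are not given in the sources used here. Coordinates (unit: other, positions in bp) are printed as deposited.

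Groups and replicate numbers came from sample titles. Peaks overlapping by at least 1 bp were joined into regions with Python 3.11.15 and pandas 2.3.3. Region calls and the gene-wise exact two-sided permutation test were checked for code errors only, on simulated lists with planted regions. The p-values of the test were Benjamini-Hochberg adjusted over all genes with a peak in either group, a step outside that check. The members and gene lists were chosen with earlier results of these data known. All 10 genes are named, and of 56 other pathway genes those with a region in at least 2 libraries of a group, with the QSC peaks at them, except a gene that is not reported here. Nearest neighbors were taken for the gene of the 10 with the highest mean summed ASC MyoD score. RefSeq (GRCm38.p6, the build of mm10) gave gene spans, start sites and promoter sequences. Its gene table held 4099 of the 4385 names in the lists. Background shares of protein-coding genes are slightly low if unmatched names include such genes. Alternatives were a score of at least 80, other overlap rules, other numbers of libraries, no distal peaks, assignment within 50 kb, replicate pairing and leaving out each library.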

Additional observations from a re-analysis of the deposited data

How the results depend on the processing

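Of 99 recomputed values, 91 moved by at most 1.5 times (counts) or by less than 1 SD of the ASC libraries (peaks per library), and none reversed. Many of the 91 were counts of 0 that stayed at 0. The 10 genes had no listed QSC peak, so settings that only remove peaks could not reverse an ASC minus QSC value. The count of genes with an ASC-specific MyoD region, 5 as reported, was 9 when a peak in at least 1 library was enough, and the count for MyoG was then 3. The ASC minus QSC difference in MyoD peaks per library at the 10 genes, 9.0 as reported, was 5.33 at a score of at least 80, 6.67 without distal intergenic peaks and 10.7 with every peak within 50 kb of a gene span. The last adds peaks assigned to other genes and was chosen after seeing the data, as was keeping only assigned peaks within 50 kb. The count of genes with more MyoD peaks in every ASC than in any QSC library, 6 as reported, was 3 at a score of at least 80 and 4 without distal peaks. The count with more MyoD than MyoG peaks in every ASC library, 5 as reported, was 3 at that score and 3 without distal peaks. Each of these settings removes or adds peaks by construction. Leaving out each library in turn gave 8.5 to 9.5 peaks, 5 to 6 genes for MyoD over MyoG, and no change in the other counts.

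Over genes, deviations of same-numbered libraries had correlations of -0.0214 to 0.0134, and those of unlike numbers -0.0177 to 0.0138. These values do not show whether same-numbered libraries came from the same animals, which the labels do not give. With the replicate block, differences of 9, 8 and 10 peaks gave the same mean of 9.0, and the gene counts stayed at 6, 0 and 5. Distances to a start site and gene coordinates are not part of the lists, so alternatives based on them were not run and RefSeq spans were used instead. Depth is unknown, and the short QSC lists limit every statement on missing peaks.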
